A study of Homo sapiens with 12 samples.

Results

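The zinc finger genes of chromosome 19 studied here were the protein-coding genes whose symbol is ZNF followed by a number and whose GENCODE gene (release 29, GRCh38) lies on that chromosome. This rule took 249 of the 60604 genes of the count table. It used no measured value. RNA was sequenced from HEK293T cells, a transformed human embryonic kidney line with SV40 large T antigen, in 12 libraries. The model is limited: 293T is 1 line, the 2 libraries of a treatment within an experiment are technical replicates, no group got a plasmid without dCas9-VP160, and the labels describe the controls both as not transfected and as given the reagents alone.

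The 3 groups held 4 libraries each, 2 technical replicates from each of 2 experiments, which used different batches of cells. No-plasmid cells got no vector. The dCas9-VP160 cells got the vector sgRNA-dCas9-VP160-P2A-EGF, which encodes a Cas9 without nuclease activity fused to a viral activation domain, and no guide RNA. The guide group got that vector with 6 guide RNAs for the CD34 promoter. Transfected cells received a total of 5.4 pmol of plasmid with lipofectamine and all cells were kept for 48 h in 100 mm dishes. In the 3 comparisons, p-values rest on how treatment differences varied between the 2 experiments. This spread was pooled over the 3 groups and moderated over all genes. A gene's own spread had 2 degrees of freedom, against a median of 24.0 borrowed from all genes. Tests of one replicate against the other, and of a difference between experiments, rest on technical replicates instead.

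Most zinc finger proteins of chromosome 19 are of the C2H2 type, in which a chain of small zinc-binding fingers reads DNA and an N-terminal KRAB box recruits the corepressor TRIM28. TRIM28 in turn brings the histone methyltransferase SETDB1, HP1 proteins and the NuRD deacetylase complex, and many of the family silence transposable elements. The genes arose by tandem duplication, so that close relatives sit side by side in clusters and share much of their sequence, promoters included.

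The libraries held 6750035 to 11932244 gene counts. CD34, the target of the guides, had 13 to 28 counts in no-plasmid libraries, 7 to 10 with dCas9-VP160 and 664 to 942 with the guides. Among markers of the line, VIM stood at 352.5 ± 25.9 CPM (counts relative to the TMM-scaled library total; SD of 2 experiments) and CDH2 at 109 ± 1.04 CPM in no-plasmid cells, whereas PAX2 reached 0.990 ± 0.0902 CPM. The summed level of 5 kidney and HEK293 markers moved with transfection, at 453 to 501 CPM without plasmid, 357 to 407 with dCas9-VP160 and 329 to 391 with the guides, and none of the 5 was at 0. Most of this sum was VIM and CDH2. LHX1 stood at 5.04 ± 0.736 CPM without plasmid, and NEFM at 1.67 ± 0.976, 1.88 ± 0.720 and 1.39 ± 0.383 CPM in the 3 groups. The 4 blood markers summed to at most 5.07 CPM with 2 of 4 at 0 in each group, the 3 endothelial markers to at most 3.50 CPM and the 2 liver markers to at most 1.02 CPM, and 4 fibroblast markers, of which COL1A1 was the highest, to 24.7 to 34.9 CPM. Their part in the results below was not tested.

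Of the 249 genes, 235 passed the filter on low counts and were tested. Of the other 14, ZNF626 and the fused names ZNF625-ZNF20 and ZNF816-ZNF321P had 0 counts in all libraries, and 11 had at most 41 counts over the 12 libraries (ZNF177, ZNF208, ZNF534, ZNF541, ZNF556, ZNF560, ZNF723, ZNF728, ZNF729, ZNF98 and ZNF99). Split at gaps over 1 Mb, the genes fell into 16 groups along the chromosome, and the 7 with at least 14 genes held 228 of them. A KRAB-like stretch was found in the translated coding sequence of 212 genes, by a pattern that can miss diverged boxes, and the median gene encoded 12 fingers (range 0 to 36).

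The median level of a tested zinc finger gene was 25.9 CPM, with quartiles of 12.8 and 46.3 CPM. Per kilobase of exon in no-plasmid cells, ZNF146, which encodes a protein made of little but fingers, was the highest at 63.7 CPM per kb. ZNF260 followed at 21.3, ZNF121 at 21.0, ZNF317 at 18.8 and ZNF428 at 17.7 CPM per kb. ZNF844 (0.0270 CPM per kb) and ZNF415 (0.0810 CPM per kb) were the lowest of those tested. The series design names a directional library, whereas the kits named do not mark strand. Exons of 140 genes overlapped those of another gene, 63 of them over more than 10% of their exonic length, and counts of these are uncertain. Reads can also be split between relatives, and in the median gene 5.07% of all 50-base words of its transcripts also occurred in a transcript of another gene.

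The promoters of 7 genes are shown first because they carry a sequence shared by neighbouring genes that are compared below. They are the 250 bases before the RefSeq transcription start (GRCh38.p14), read 5′ to 3′ on the strand of the gene, and the capitals mark a match to the 12 letters GGCGGGGCGCGA on either strand. In coordinates, these are ZNF761 chr19:53431734-53431983 (plus strand); ZNF845 chr19:53333499-53333748 (plus strand); ZNF468 chr19:52857620-52857869 (minus strand); ZNF611 chr19:52735045-52735294 (minus strand); and ZNF83 chr19:52690497-52690746 (minus strand), ZNF841 chr19:52095766-52096015 (minus strand) and ZNF808 chr19:52527418-52527667 (plus strand).
ZNF761: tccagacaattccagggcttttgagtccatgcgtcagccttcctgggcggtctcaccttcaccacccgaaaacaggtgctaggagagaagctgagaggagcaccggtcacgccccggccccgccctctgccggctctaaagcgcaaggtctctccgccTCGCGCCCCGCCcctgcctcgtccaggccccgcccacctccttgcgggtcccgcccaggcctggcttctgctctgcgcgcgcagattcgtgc
ZNF845: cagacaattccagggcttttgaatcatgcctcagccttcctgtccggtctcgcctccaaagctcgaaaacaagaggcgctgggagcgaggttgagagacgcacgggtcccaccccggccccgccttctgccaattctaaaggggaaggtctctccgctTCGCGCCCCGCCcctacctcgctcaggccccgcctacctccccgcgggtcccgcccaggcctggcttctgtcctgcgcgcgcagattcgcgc
ZNF468: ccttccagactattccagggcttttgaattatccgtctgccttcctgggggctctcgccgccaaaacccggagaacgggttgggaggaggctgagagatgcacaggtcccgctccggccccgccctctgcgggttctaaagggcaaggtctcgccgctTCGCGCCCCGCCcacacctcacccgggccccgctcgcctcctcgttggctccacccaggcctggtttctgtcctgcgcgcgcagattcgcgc
ZNF611: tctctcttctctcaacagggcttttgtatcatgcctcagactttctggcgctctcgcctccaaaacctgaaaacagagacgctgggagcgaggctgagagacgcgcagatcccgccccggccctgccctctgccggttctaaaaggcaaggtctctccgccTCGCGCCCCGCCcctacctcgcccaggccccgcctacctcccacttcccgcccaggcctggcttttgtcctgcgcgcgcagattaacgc
ZNF83: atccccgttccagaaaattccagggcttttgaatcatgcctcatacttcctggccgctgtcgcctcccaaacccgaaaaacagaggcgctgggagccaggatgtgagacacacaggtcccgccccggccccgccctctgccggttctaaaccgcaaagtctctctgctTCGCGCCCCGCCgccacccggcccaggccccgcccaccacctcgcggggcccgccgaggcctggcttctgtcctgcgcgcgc
ZNF841: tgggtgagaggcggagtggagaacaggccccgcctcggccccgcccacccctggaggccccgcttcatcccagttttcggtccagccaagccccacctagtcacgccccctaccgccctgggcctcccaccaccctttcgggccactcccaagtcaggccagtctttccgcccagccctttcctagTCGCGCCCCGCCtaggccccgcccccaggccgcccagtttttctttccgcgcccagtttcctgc
ZNF808: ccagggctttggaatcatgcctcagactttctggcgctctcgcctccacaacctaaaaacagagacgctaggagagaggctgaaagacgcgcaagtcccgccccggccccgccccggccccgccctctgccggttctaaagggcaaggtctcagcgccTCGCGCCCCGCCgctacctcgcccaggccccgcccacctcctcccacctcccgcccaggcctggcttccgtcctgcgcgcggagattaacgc

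A promoter sequence was matched by symbol for 217 of the 249 genes. The 12-letter sequence was in 7 of the 217, the 7 shown, all from the cluster that runs from ZNF175 to ZNF331, in none of 211 promoters of ZNF genes of other chromosomes and in 0.120% of all 35116 promoters of the table. The 10 letters CCTGATTGGA, searched on both strands, were in 44 of the 217 (20.3%), in 13 of 211 ZNF promoters of other chromosomes and in 0.342% of all promoters, and in none of 31 promoters of the ZNF175 to ZNF331 cluster. That 10-mer holds the CCAAT box, read here as ATTGG on either strand, which was in 51.6% of the promoters against 32.0% of all. The GC box GGGCGG was in 65.4% against 42.6%, the ETS core CCGGAAG in 31.8% against 8.52%, and the TATA box TATAAA in 1.84% against 10.7%. ZNF promoters of other chromosomes were near these shares, with the CCAAT box in 42.65%, the GC box in 58.3%, the ETS core in 28.0% and the TATA box in 3.79%. The 10-mer was taken as the word of its length with the largest share in these promoters in excess of its share in all, and the 12-mer likewise from the 10 cluster genes that rose on adding guides, so the 12-mer was chosen with those calls known. A match is a description of letters, not a binding site.

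In cells with dCas9-VP160 and no guides, more zinc finger genes of chromosome 19 were higher than lower, and the effects of plasmid and protein cannot be told apart. Of the 235 tested, 92 were higher and 36 lower than in no-plasmid cells (edgeR quasi-likelihood test, Benjamini-Hochberg adjusted p under 0.05 over 19662 genes), and 107 were not called. These are shares of 39.1% and 15.3%, where 26.6% of all genes were higher, 24.6% lower and 51.2% called in either direction. The median log2 fold change of the 235 was 0.10, against -0.0020 over all genes, so most of the differences were small: the median fold of the genes that rose was 1.31 and that of the genes that fell 0.792. ZNF genes of other chromosomes stood between, with 85 higher and 59 lower of 242 and a median of 0.06. The other protein-coding genes of chromosome 19 had 251 higher and 207 lower of 829 with a median of 0.01, and 4668 other genes with a level between the quartiles of the family had 1376 higher and 1457 lower with a median of -0.01. In bulk RNA, fewer cells with a transcript and less of it per cell cannot be told apart.

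**Figure D1:**
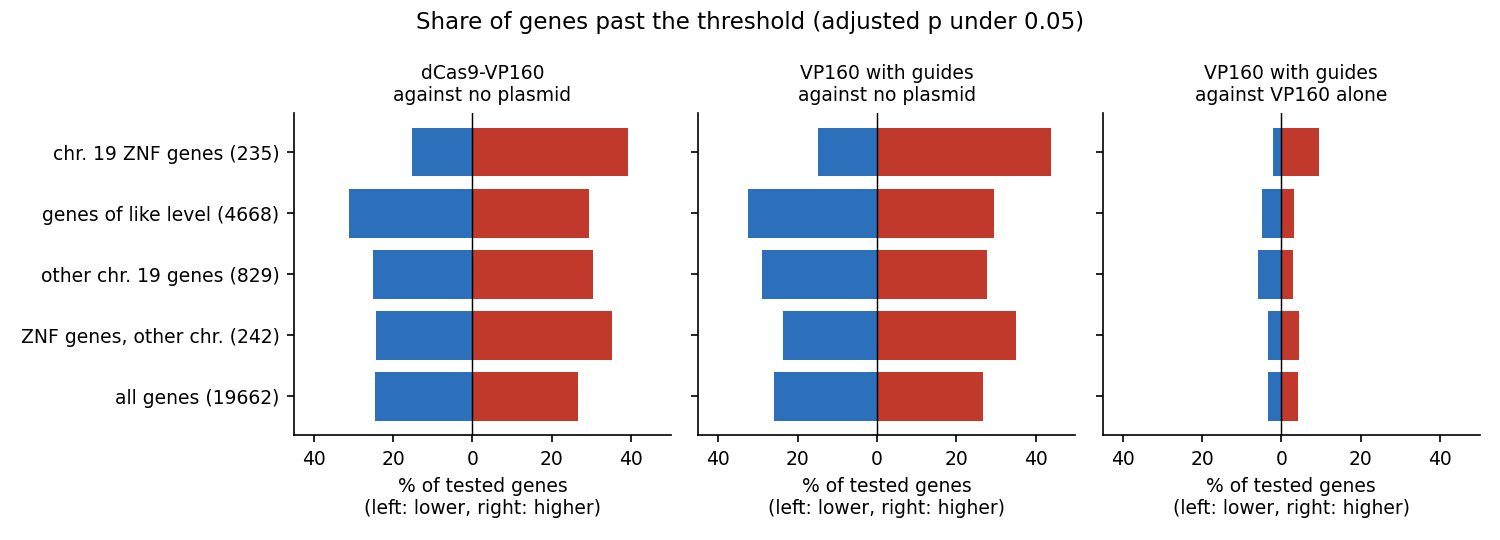
Share of tested genes called higher (red, to the right) or lower (blue, to the left) at an adjusted p under 0.05, in percent, for the zinc finger genes of chromosome 19 and 4 comparison sets (number tested in brackets) in the 3 comparisons. In the top row, 39.1% were higher and 15.3% lower with dCas9-VP160, and 9.36% higher and 2.13% lower once guides were added.

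Taken as a sum, the 249 genes made up 0.692 to 0.744% of gene counts in the no-plasmid libraries, 0.789 to 0.846% with dCas9-VP160 and 0.817 to 0.864% with the guides. By this share the no-plasmid libraries lay below all 8 others, while the transfected groups overlapped. In TMM-scaled CPM the sums were 7031 to 7458, 7785 to 8362 and 8389 to 8751, and no groups overlapped. The technical replicates bear on the size: the median was 0.17 from the first replicates alone (84 higher, 23 lower) and 0.016 from the second alone (55 higher, 33 lower). A test of second against first replicates called none of the 226 genes it could test (edgeR, with 16 at an unadjusted p under 0.05), and 1 of all 17218 genes. It averaged over all groups, so it cannot show a replicate difference in the response to dCas9-VP160. By experiment the median was 0.09 in the first and 0.10 in the second, and 0 of 226 genes were called for a difference in this response between experiments (edgeR interaction term on 12 libraries, 12 at an unadjusted p under 0.05).

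ZNF473 rose most by the rule used for naming genes. Its protein belongs to the machinery that trims the 3′ end of histone pre-mRNA and sits alone on the chromosome, over 1 Mb from its nearest relatives in the family. It stood at 72.6, 76.0, 61.8 and 67.4 CPM in the 4 no-plasmid libraries and at 139, 123, 135 and 125 CPM with dCas9-VP160. Every transfected library was above every no-plasmid library, and the log2 fold change was 0.92 ± 0.05 (± SE here and below, adjusted p 2.4e-14).

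ZNF761, a KRAB protein with 17 fingers, came to 48.2, 51.3, 52.3 and 56.9 CPM without plasmid and 91.5, 78.4, 99.8 and 94.7 CPM with dCas9-VP160. The groups did not overlap, and the log2 fold change was 0.81 ± 0.05 (adjusted p 8.0e-13). ZNF296, a 6-finger protein without KRAB known as a pluripotency-associated factor in mouse, went from 7.48, 7.42, 8.65 and 7.26 CPM to 16.0, 16.8, 13.1 and 10.7 CPM, again without overlap (log2 0.86 ± 0.13). The other genes named for their rise were ZNF57 (0.80 ± 0.09), ZNF90 (0.79 ± 0.12), ZNF441 (0.74 ± 0.07), ZNF850 (0.73 ± 0.08) and ZNF563 (0.70 ± 0.16), all KRAB proteins with 10 to 29 fingers.

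The falls were of like size and fewer. ZNF577, which encodes a KRAB protein with 7 fingers, stood at 51.8, 58.2, 46.6 and 49.0 CPM without plasmid and 34.1, 35.5, 32.0 and 34.2 CPM with dCas9-VP160, with no overlap (log2 -0.60 ± 0.07, adjusted p 2.2e-08). ZNF784 fell by 0.73 ± 0.19 from a level of 4.47 ± 0.151 CPM. ZNF573 (-0.59 ± 0.08), ZNF836 (-0.57 ± 0.13), ZNF565 (-0.54 ± 0.12), ZNF599 (-0.50 ± 0.10), ZNF345 (-0.49 ± 0.08) and ZNF221 (-0.48 ± 0.10) completed the list. ZNF836 and ZNF577 lie in the same cluster as ZNF761, so that neighbours moved in opposite directions.

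Changes of more than 1 on the log2 scale were seen in 4 genes, all at low level and named here after their values were seen, except ZNF844 and ZNF415. ZNF415 rose from 0.306 ± 0.149 to 1.71 ± 0.191 CPM (log2 2.46 ± 0.40) and ZNF844 from 0.179 ± 0.111 to 0.841 ± 0.282 CPM (2.19 ± 0.54). Without plasmid these rest on 2, 2, 3 and 5 counts of ZNF415 and on 1, 1, 1 and 4 counts of ZNF844, so the size of both rises is imprecise. ZNF418 rose by 1.22 ± 0.25 from 1.27 ± 0.310 CPM and ZNF628 fell by 1.22 ± 0.39 from 1.37 ± 0.240 CPM.

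**Figure D2:**
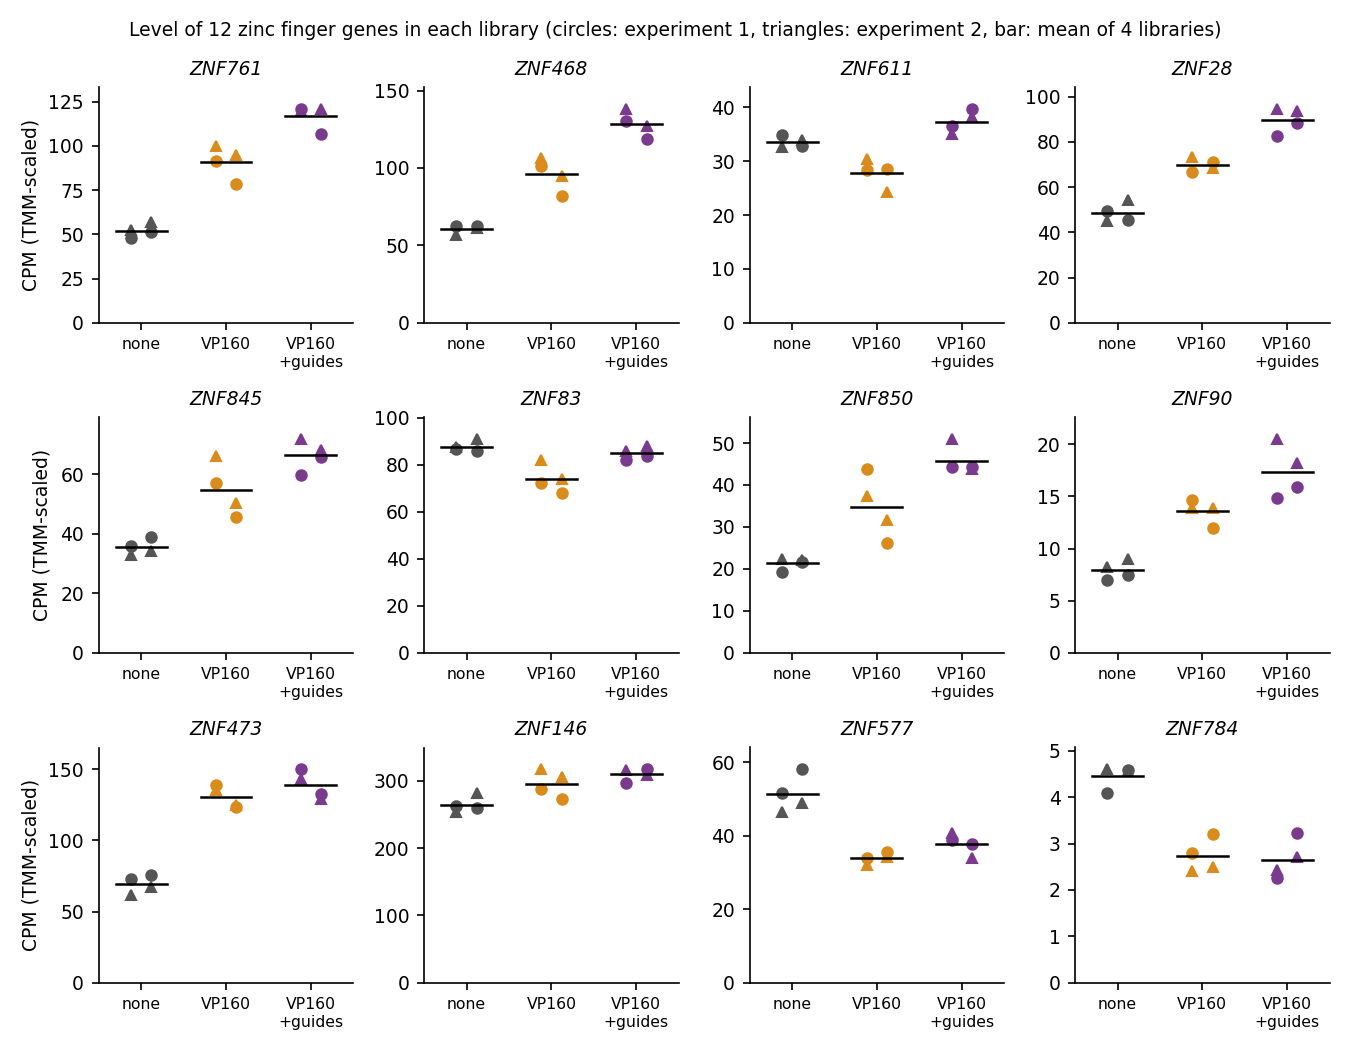
Level of 12 zinc finger genes in each of the 12 libraries, in TMM-scaled CPM on axes that start at 0; circles are experiment 1, triangles experiment 2 and bars the mean of the 4 libraries of a group. ZNF473 stood higher in all transfected libraries than without plasmid, ZNF761, ZNF468 and ZNF28 stood highest with guides, and ZNF611 and ZNF83 were lowest with dCas9-VP160 alone.

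Members with a known role are given whether or not they were called; their list was drawn up with earlier results known. Among those that restrain retrotransposons, ZNF91, which binds SVA elements and carries 31 fingers, stood at 96.95, 97.2, 89.8 and 94.5 CPM without plasmid and 101, 85.5, 92.6 and 93.5 CPM with dCas9-VP160, ranges that overlap (log2 -0.01 ± 0.05, adjusted p 0.91). ZNF93, which binds L1 elements, was near the floor at 0.789 ± 0.122 CPM and was not called (0.43 ± 0.36). With guides against no plasmid ZNF93 was called higher. Over 26 alternative fits that log2 fold change was 0.76 to 1.08, and the call was lost in 10. ZNF649, which also binds L1 elements, rose by 0.32 ± 0.06. ZNF587 and ZNF417, a recent duplicate pair that binds HERV-K, fell by 0.21 ± 0.06 and by 0.34 ± 0.09, but their transcripts shared 35.5% and 37.7% of 50-base words with other genes.

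ZNF274, which brings SETDB1 to the 3′ ends of zinc finger genes themselves, went from 80.7, 84.3, 64.3 and 70.7 CPM to 121, 119, 119 and 103 CPM. All its dCas9-VP160 libraries were above all no-plasmid libraries (log2 0.62 ± 0.05, adjusted p 8.6e-11). ZNF675, a regulator of TRAF6 signalling, rose by 0.64 ± 0.06, and ZNF85, of the same cluster, by 0.40 ± 0.05. ZNF507 (0.35 ± 0.05) rose and ZNF536, known in neural differentiation, fell by 0.38 ± 0.10. Small rises were called for ZNF146 (0.17 ± 0.04), ZNF568 (0.19 ± 0.08) and ZNF331 (0.12 ± 0.05), an imprinted gene. The call was lost in 17 of 26 alternative fits for ZNF331, where the value went down to 0.0015, and in 11 of 26 for ZNF568. ZNF224, first known as a repressor of aldolase A, fell by 0.15 ± 0.05, with 40.5% of its exons overlapped by another gene. ZNF382 (-0.08 ± 0.07), ZNF433 (0.19 ± 0.09) and ZNF114 (0.05 ± 0.22) were not called.

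In a list of KRAB corepressors and related silencing genes, more were lower than higher. Of 32 corepressor genes listed, 16 were lower and 6 higher with dCas9-VP160, and their median log2 fold change was -0.14. These are shares of 50% lower and 18.75% higher, where 24.6% of all genes were lower and 26.6% higher. The list was not matched by level to other genes. TRIM28, the hub, was not called at 379.5 ± 37.2 and 373 ± 10.9 CPM (-0.02 ± 0.04, adjusted p 0.638). NuRD subunits changed in both directions, and the 4 largest changes of the list were falls among them: CHD3 (-0.75 ± 0.07), HDAC1 (-0.54 ± 0.04), CHD4 (-0.52 ± 0.04) and RBBP7 (-0.46 ± 0.03). The HP1 genes CBX1 (-0.45 ± 0.05) and CBX5 (-0.44 ± 0.03) and the methyltransferase SETDB1 (-0.20 ± 0.06) fell as well. DNMT1, the maintenance DNA methyltransferase, rose by 0.39 ± 0.04 and DAXX, a histone chaperone, by 0.26 ± 0.05, and ATRX, its partner, by 0.11 ± 0.04. The other rises were in the NuRD subunits MTA2 (0.15 ± 0.06), HDAC2 (0.09 ± 0.03) and GATAD2A (0.15 ± 0.06), and the NuRD subunit MBD3 was not called (-0.10 ± 0.05).

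Features of the genes were set beside the calls without a test. Over all genes, 26.6% were higher and 24.6% lower with dCas9-VP160, and 26.7% and 25.9% with guides against no plasmid. KRAB-like genes had 79 higher and 29 lower of 199 with a median of 0.11, and genes without the stretch 13 and 7 of 36 with a median of 0.04. By finger number, the medians with dCas9-VP160 were 0.04 in 62 genes of up to 9 fingers, 0.10 in 100 genes of 10 to 14 and 0.11 in 73 genes of 15 or more. With guides against no plasmid they were -0.0082, 0.16 and 0.21, and 23, 41 and 39 genes were higher and 12, 13 and 10 lower. On adding guides 5, 7 and 10 rose and 2, 3 and 0 fell. These are shares of 8.06%, 7% and 13.7% higher and 3.23%, 3% and 0% lower. Of all genes, 4.16% were higher and 3.41% lower. By level with dCas9-VP160, above 46 CPM, 38 of 61 were higher and 8 lower, whereas below 13 CPM, where fewer reads were counted, 13 of 60 were higher and 6 lower. Among the 60 genes with over 10% of their exons overlapped, 14 were higher and 15 lower with a median of -0.01. Among the 175 others, 78 were higher and 21 lower with a median of 0.14. In the 170 genes with at most 10% of 50-base words shared, 75 were higher and 22 lower.

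dCas9-VP160 with guides was compared with the same no-plasmid libraries, so these values stand beside those above and are not a separate replication. Here 103 of the 235 genes were higher (43.8%) and 35 lower (14.9%), where 26.7% of all genes were higher, 25.9% lower and 52.6% called. The median log2 fold change was 0.15, against -0.02 for all genes. The 9 genes that rose by more than 1 included ZNF761 (1.17 ± 0.05), ZNF90 (1.13 ± 0.11), ZNF850 (1.11 ± 0.08) and ZNF468 (1.09 ± 0.05). ZNF473 (1.00 ± 0.05), ZNF563 (1.00 ± 0.16), ZNF841 (0.96 ± 0.09) and ZNF600 (0.90 ± 0.07) were the next in the naming rule. ZNF784 (-0.75 ± 0.20), ZNF428 (-0.54 ± 0.08), ZNF573 (-0.54 ± 0.08), ZNF836 (-0.50 ± 0.13), ZNF577 (-0.44 ± 0.07), ZNF565 (-0.43 ± 0.12), ZNF536 (-0.41 ± 0.10) and ZNF792 (-0.40 ± 0.13) fell most among genes of at least 3 CPM, and below that level ZNF628 fell by 1.21 ± 0.40. Of the corepressors, 17 were lower and 3 higher.

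The 7 large clusters differed in their counts. Over all genes, 26.6% were higher and 24.6% lower with dCas9-VP160, and 26.7% and 25.9% with the guides. In the order given below, the clusters had 53.3%, 57.7%, 50%, 16.7%, 28%, 21.4% and 35.6% higher with dCas9-VP160. Their shares lower were 6.67%, 19.2%, 21.1%, 20.8%, 8%, 21.4% and 11.9%, so some clusters were near the shares of all genes. In the ZNF101 to ZNF254 cluster (chr19:19668796-24129961), a primate-expanded group that holds ZNF91, 16 of 30 tested genes were higher and 2 lower with dCas9-VP160 and 22 higher and 1 lower with the guides, with medians of 0.19 and 0.34. In the ZNF565 to ZNF573 cluster (chr19:36182060-37817300), 15 of 26 were higher and 5 lower, then 18 and 5, with medians of 0.24 and 0.27. The ZNF175 to ZNF331 cluster (chr19:51571298-53580269) had 19 of 38 higher and 8 lower, then 20 and 2, with medians of 0.20 and 0.24. In the ZNF575 to ZNF296 cluster (chr19:43525497-45076588) there were 4 higher and 5 lower of 24, then 5 and 6. The ZNF653 to ZNF791 cluster (chr19:11483427-12640098) had 7 and 2 of 25, then 7 and 1, and the ZNF557 to ZNF846 cluster (chr19:7069444-9793180) had 3 and 3 of 14, then 4 and 5. The ZNF628 to ZNF446 cluster (chr19:55476332-58481230), the largest, had 21 of 59 higher in both comparisons and 7 and then 9 lower. No test of a difference between clusters was made.

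**Figure D3:**
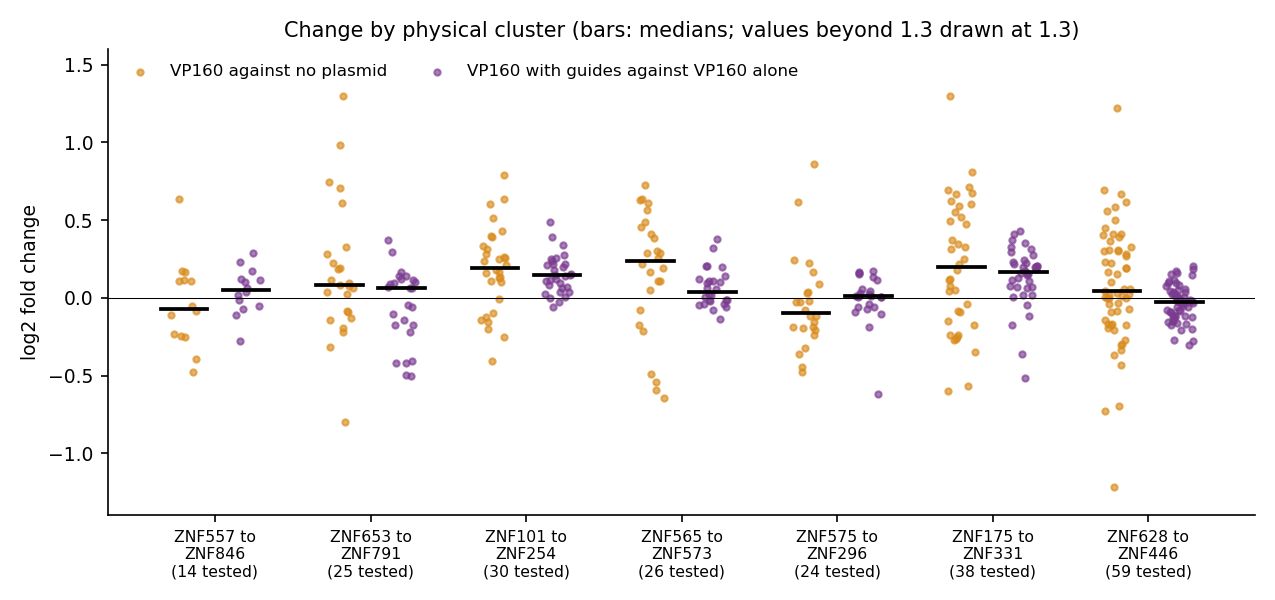
Log2 fold change of every tested gene in the 7 clusters with at least 14 genes, for dCas9-VP160 against no plasmid (orange) and for the addition of guides (purple); black bars are medians. The purple median of the ZNF175 to ZNF331 cluster is 0.17 and that of the ZNF628 to ZNF446 cluster is -0.02.

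Adding the guides to dCas9-VP160 changed few of the genes, and most of those that rose lie together. No group got guides for another target. Effects of the guide RNA, of CD34 and of any change in the amount of dCas9-VP160 plasmid cannot be told apart. Against dCas9-VP160 alone, 22 of the 235 were higher (9.36%) and 5 lower (2.13%), where 4.16% of all genes were higher, 3.41% lower and 7.56% called. The median log2 fold change was 0.04, against -0.0040 for all genes. Of the 22, 13 lie in the ZNF175 to ZNF331 cluster, whose 38 tested genes had 13 higher and a median of 0.17, with 33 of 38 above 0. None of the 38 was lower in edgeR or in DESeq2, at an adjusted or an unadjusted p under 0.05 (0 in each). At an unadjusted p under 0.05, 19 were higher in edgeR, and DESeq2 called 5 higher. The 30 other genes tested within the same stretch of chromosome, of any gene type, had a median of 0.0047 with quartiles of -0.24 and 0.22. By experiment their medians were 0.09 and 0.05, and 16 of the 30 were above 0. Of them 1 was called, SIGLEC14 (0.81 ± 0.21, 2.56 ± 0.672 to 4.45 ± 0.117 CPM), named after its value was seen. They were not matched by level, and calls go with level: of zinc finger genes below 13 CPM, 0 of 60 were called higher on adding guides.

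**Figure D4:**
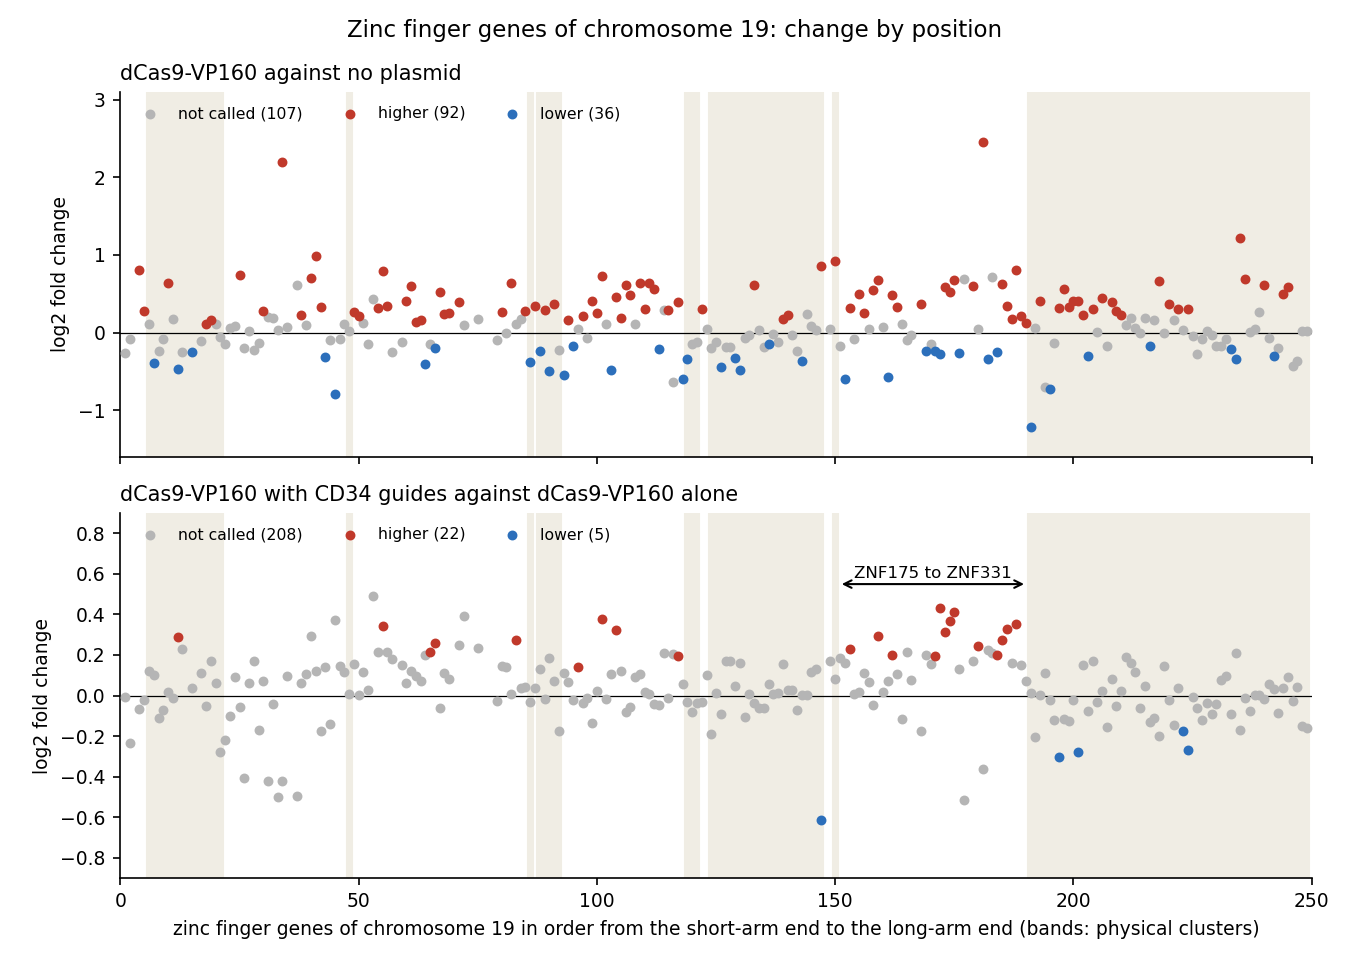
Log2 fold change of the tested zinc finger genes in their order along chromosome 19, for dCas9-VP160 against no plasmid (top) and for the addition of guides (bottom); shaded and white bands are physical clusters, and colour gives the call. In the lower panel 13 of the 22 red points stand in the ZNF175 to ZNF331 cluster, and 4 of the 5 blue points in the last cluster.

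The summed level of that cluster was 1310 to 1430 CPM in the 4 no-plasmid libraries, 1414 to 1646 with dCas9-VP160 and 1708 to 1868 with the guides. The guide libraries lay above all others, while the other groups touched. Each of the 13 genes was higher with guides in both experiments, by at least 0.22 in the first and 0.16 in the second on the log2 scale. They were called on these same experiments, so the shared sign is not separate support. Over all 38 tested genes of the cluster the lowest values were -0.41 and -1.43. The count depends on the fit: 13 fell to 7 without the second dCas9-VP160 replicate of experiment 2, 5 with the first technical replicates alone and 6 and 4 in experiments 1 and 2 alone. With no block for experiment edgeR called none, with 13 of the 38 higher at an unadjusted p under 0.05. The median of the cluster was between 0.12 and 0.23 in each of 15 fits (other scalings, filters, tools, replicates or experiments).

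ZNF611 rose most among the genes called on adding guides. It is a 13-finger KRAB protein that binds SVA elements, and its promoter is shown above. Its level was 34.9, 32.9, 32.6 and 34.0 CPM without plasmid, 28.4, 28.5, 30.4 and 24.2 CPM with dCas9-VP160 and 36.5, 39.7, 35.0 and 38.3 CPM with guides. The dCas9-VP160 libraries were the lowest and overlapped neither of the other groups. The log2 fold change was 0.43 ± 0.07 on adding guides (adjusted p 2.9e-04) and 0.16 ± 0.07 against no plasmid (adjusted p 0.059). ZNF83, ZNF677 and ZNF493 had the same order, with a fall against no plasmid, a rise on adding guides and no call between guides and no plasmid. ZNF83 stood at 86.7, 85.9, 87.5 and 91.0 CPM, 72.3, 68.0, 82.2 and 73.8 CPM and 82.1, 83.6, 85.7 and 88.1 CPM in the 3 groups, where the ranges with dCas9-VP160 and with guides touched. Such an order uses the same dCas9-VP160 libraries in both differences.

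In the other pattern the level climbed from group to group. ZNF468 came to 62.6, 62.4, 56.6 and 61.1 CPM without plasmid, 101, 81.6, 106 and 94.8 CPM with dCas9-VP160 and 130.2, 119, 138 and 127 CPM with guides. None of its 3 groups overlapped, and the added log2 fold change was 0.41 ± 0.05 (adjusted p 5.4e-06). Of its exonic length 53.3% overlaps other genes, ZNF28 and ZNF320 among its neighbours, and 55.8% of its 50-base words occur elsewhere, so this value is uncertain. ZNF761, whose promoter is shown above and whose words are shared to 9.27%, had 121, 107, 120.1 and 121 CPM with guides, above all its dCas9-VP160 libraries, an added 0.35 ± 0.05 (adjusted p 2.7e-05).

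ZNF28 stood at 49.5, 45.4, 44.8 and 54.3 CPM, then 66.7, 71.1, 73.2 and 68.6 CPM and then 82.8, 88.4, 94.6 and 93.8 CPM, without overlap (added log2 0.37 ± 0.05, adjusted p 4.8e-05). ZNF845, with 26 fingers, stood at 57.1, 45.5, 66.0 and 50.4 CPM with dCas9-VP160 and 59.6, 65.8, 71.8 and 68.0 CPM with guides, where the highest library of the first group reached into the range of the second (0.27 ± 0.07, adjusted p 0.0092). ZNF525 (0.33 ± 0.07), ZNF600 (0.31 ± 0.07), ZNF841 (0.29 ± 0.08), ZNF160 (0.25 ± 0.06), ZNF649 (0.23 ± 0.06), ZNF677 (0.20 ± 0.05), ZNF766 (0.20 ± 0.06) and ZNF83 (0.20 ± 0.05) complete the 13. Apart from ZNF468 and ZNF600 (10.8%), each shared at most 9.86% of its 50-base words with other genes.

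By its choice, the 12-letter promoter sequence was in 6 of the 10 genes of the cluster that rose on adding guides and have a promoter entry, and in 1 of the 21 that were not called, ZNF808. ZNF808 stood at 20.8, 15.1, 18.3 and 17.5 CPM with dCas9-VP160 and 20.04, 15.9, 24.8 and 22.8 CPM with guides, ranges that overlap (0.20 ± 0.10, adjusted p 0.24). Of the 7 genes elsewhere on the chromosome that rose and have an entry, none held it. All 10 risen genes of the cluster held a GC box, as did 14 of the 21. The 10-mer found in other clusters was in none of either. These are counts of letters in related promoters, and the direction against no plasmid differed among the 7 carriers: ZNF761, ZNF845, ZNF468 and ZNF841 rose with dCas9-VP160, whereas ZNF611, ZNF83 and ZNF808 fell.

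Outside the cluster, 9 genes rose on adding guides. ZNF850, a 29-finger KRAB protein, stood at 19.3, 21.7, 22.2 and 22.1 CPM without plasmid, 43.8, 26.2, 37.4 and 31.6 CPM with dCas9-VP160 and 44.2, 44.3, 51.0 and 43.7 CPM with guides. The highest dCas9-VP160 library touched the lowest guide library (added log2 0.38 ± 0.07, adjusted p 9.4e-04). In the same cluster ZNF829 (0.32 ± 0.06), ZNF607 (0.20 ± 0.06) and ZNF260 (0.14 ± 0.04) were also called, and the call of ZNF260 was lost in 18 of 26 alternative fits (adjusted p up to 0.78). In the ZNF101 to ZNF254 cluster ZNF90 (0.34 ± 0.10), ZNF681 (0.27 ± 0.08), ZNF493 (0.26 ± 0.07) and ZNF738 (0.22 ± 0.06) rose, and the median was 0.14 with 28 of 30 above 0. The call of ZNF90 was lost in 12 of 25 alternative fits. DESeq2 called 7 genes of the whole family higher, 5 in the ZNF175 to ZNF331 cluster and 2 in the ZNF565 to ZNF573 cluster. It called 0 higher in the ZNF101 to ZNF254 cluster and 0 in the cluster of ZNF559. ZNF559 (0.29 ± 0.08) stood alone in its cluster. ZNF91 had 98.3, 102, 109.6 and 105 CPM with guides and was not called against dCas9-VP160 (0.14 ± 0.05, adjusted p 0.086).

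The 5 falls were ZNF296, ZNF581, ZNF583, ZNF211 and ZNF134. ZNF296 dropped to 8.49, 10.2, 7.83 and 9.96 CPM with guides, below every dCas9-VP160 library (-0.62 ± 0.13, adjusted p 0.0025), and was not called against no plasmid (0.24 ± 0.14). ZNF581 (-0.30 ± 0.07), ZNF583 (-0.28 ± 0.08) and ZNF211 (-0.27 ± 0.07) likewise rose with dCas9-VP160 and were not called between guides and no plasmid. ZNF134 fell by 0.17 ± 0.05. DESeq2 called 0 genes of the family lower (3 at an unadjusted p under 0.05), so none of the 5 falls. With DESeq2 counted, the call was lost in 17 of 26 alternative fits for ZNF134 and in 11 for ZNF583, whose value was -0.030 in first replicates alone. All but ZNF296 lie in the ZNF628 to ZNF446 cluster, where 0 of 59 genes rose in edgeR (3 at an unadjusted p under 0.05) and 0 rose and 0 fell in DESeq2 (0 and 2 unadjusted). The family's split of 22 higher and 5 lower moved to 13 and 7 when libraries were scaled by total counts alone, whereas the ZNF175 to ZNF331 cluster then had 10 higher and 0 lower. The corepressors had 2 higher, CBX5 (0.13 ± 0.03) and UHRF1 (0.13 ± 0.04), and 1 lower, DAXX (-0.16 ± 0.05), of 32, or 9.38% called where 7.56% of all genes were.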

How the data were processed

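The authors deposited a table of raw counts per gene for the 12 libraries. Per the submitters' processing notes, Trim Galore 0.3.7, STAR 2.6.0c, Picard 2.17.1, DESeq2 1.16.1 and hg38 were used. The counting program, the annotation release and the treatment of reads that match several genes were not given in the sources used here. A second table deposited by the authors lists 97 genes with mean normalised signal, log2 fold changes and their errors, a Wald score and p-values, per the file headers; none of the 97 is a zinc finger gene of chromosome 19, and it was not used further.

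The members and gene lists were chosen with earlier results of these data known. Spike-in rows (92) were left out. The technical replicates of each treatment and experiment were summed to 6 libraries and fitted over all genes by the robust quasi-likelihood F test of edgeR 4.0.16 (R 4.3.3), after filterByExpr and TMM scaling, with experiment as a block. In all 3 pairs of groups the differences between experiments correlated at 0.616 to 0.631 over 12875 genes, and the experiment number marks a batch of cells per the labels. Benjamini-Hochberg adjustment ran over 19662 tested genes, with calls at an adjusted p under 0.05. Levels are TMM-scaled CPM with the SD of 2 experiments. The approximate SE is |log2 fold change| over √F. The fit was tested on simulated data for dCas9-VP160 against no plasmid. These had the same spread for all genes, no difference between experiments and larger changes than most seen here. Smaller changes were not simulated. Named are, per comparison, the 8 largest called rises and falls with the same sign in both experiments and a mean of at least 3 CPM, the 5 highest and 2 lowest genes per kb of exon, and landmark genes; the cluster genes called on adding guides and the called falls were named as well, after their values were seen. Fingers were counted in translated GENCODE coding sequences by the pattern C, 2 to 4 residues, C, 12 residues, H, 3 to 5 residues, H. Promoters come from RefSeq. Libraries held 6750035 to 11932244 gene counts, and a count of 0 allows up to 3 counts (0.251 to 0.444 CPM), which covers counting error only. One marker of the line is not reported here.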

Additional observations from a re-analysis of the deposited data

Results flagged for a closer look

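In 15 of 153 groups of 4 libraries examined for the named genes, 1 library stood far from the other 3 of its group, by the gap to its nearest neighbour over the group's range, where chance gives about 1 in 20 for independent libraries, which the technical replicates of an experiment are not. In first replicates of experiment 2, ZNF317 had 163 CPM in the dCas9-VP160 group (others 142 to 145), ZNF507 56.3 CPM without plasmid (65.7 to 66.5) and ZNF296 8.65 CPM without plasmid (7.26 to 7.48). In the guide group of the same replicate, ZNF850 had 51.0 CPM (43.7 to 44.3), ZNF114 5.41 CPM (2.49 to 2.70) and ZNF525 53.4 CPM (44.2 to 45.5). In the second replicate of experiment 2, ZNF844 had 0.372 CPM without plasmid (0.0884 to 0.117), ZNF274 103 CPM with dCas9-VP160 (119 to 121) and ZNF415 2.14 CPM with guides (0.993 to 1.18). In experiment 1, ZNF536 had 15.4 CPM (10.49 to 10.82) in the second dCas9-VP160 replicate, and ZNF599 had 11.1 CPM (11.99 to 12.15) and ZNF415 1.35 CPM (1.83 to 1.90) in the first. ZNF428 had 31.7 CPM (17.5 to 19.3) and ZNF761 107 CPM (120.1 to 121.0) in the second guide replicate, and ZNF784 had 4.09 CPM (4.56 to 4.61) in the first no-plasmid replicate.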

How the results depend on the processing

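The family's median stayed above 0 and higher calls outnumbered lower ones in all 26 alternatives for both comparisons with no plasmid. For dCas9-VP160 against no plasmid, leaving out 1 library gave 111 to 128 called, 79 to 92 higher, 26 to 39 lower and a median of 0.078 to 0.115. With guides it gave 126 to 139, 94 to 105, 28 to 35 and 0.098 to 0.17, the lowest median without the first guide replicate of experiment 2. On adding guides it gave 14 to 32, 11 to 26, 2 to 6 and 0.029 to 0.073, and 7 to 14 higher in the ZNF175 to ZNF331 cluster. On adding guides, the called genes of the whole family fell from 27 to 14 without the second no-plasmid replicate of experiment 2. They fell to 15 without the second dCas9-VP160 replicate of experiment 1 and to 14 without that of experiment 2. The higher genes of the family fell to 12, 12 and 11 in these, and to 14 without the first guide replicate of experiment 2. Lower genes were 3 or 2 in 7 of the 12.

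With no replicate block, edgeR called 66 (53 higher, 13 lower), 80 (68, 12) and 0 (0, 0) in the 3 comparisons, and 0 in the cluster; 19 were higher and 4 lower on adding guides at an unadjusted p under 0.05, and DESeq2 with the block called 7. DESeq2 gave 75 (57, 18), 84 (10 lower) and 7 (7 higher, 0 lower; 25 and 3 unadjusted), with 5 in the cluster. Second technical replicates alone gave 55 higher and a median of 0.016 for dCas9-VP160, 88 called, 19 lower and 0.092 with guides, and 13 called, 12 higher, 1 lower and 0.078 on adding guides. First replicates alone gave 23 lower and 0.17, then 22 lower and 0.19, then 9 called and 5 higher with 5 in the cluster. Experiment 1 alone gave a median of 0.089, then 23 lower and 0.12, then 8 called (6, 2) and 6 in the cluster; experiment 2 alone gave 22 lower and 0.17, then 7 called (7, 0; 34 and 6 unadjusted in edgeR) and 4. Total-count scaling gave medians of 0.12, 0.13 and 0.0025 and 13 higher on adding guides, and upper quartile scaling 0.060 and 0.10. No scaling moved the median of all genes by over 0.1. The cause of these shifts was not tested.

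ZNF134 with guides against no plasmid turned to 0.052 (adjusted p 0.617) in first replicates alone. By gene, 18 of 43 named calls with dCas9-VP160, 15 of 40 with guides and all 17 on adding guides were lost in at least 1 alternative; over genes and alternatives together this was 81 of 1112, 63 of 1032 and 109 of 440 values, with that 1 change of direction. P-values rest on 2 experiments and a spread moderated over all genes, those of single experiments on technical replicates. Genes below 13 CPM and those with overlapping exons are least certain.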
